A study of Homo sapiens with 96 samples.

Results

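Gallic acid, a phenolic acid of peony root (Paeoniae Radix), was compared between its highest and lowest dose in A549 cells, an established human lung adenocarcinoma line. Cells given 10 µM gallic acid (3 libraries) were set against cells given 0.4 µM gallic acid (3 libraries), so that both groups received the compound and no vehicle library entered the contrast. These are 6 of the 96 RNA sequencing libraries in the series, all from the second of 2 batches, and they were taken by compound and dose label alone. Libraries at 2 µM gallic acid (3) and at 10 and 0.4 µM benzoic acid (3 each), another ingredient of the root, serve for comparison. The series sets extracts and 8 ingredients of the root against vehicle, and its title names the Aurora B pathway of cell division. How long the cells were exposed, and in which vehicle, is not given in the sources used here. Nothing in the labels makes the replicates separate cultures, so p-values reflect the spread between libraries alone and that spread may be technical.

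Gallic acid carries hydroxyl groups on its ring that benzoic acid lacks, and in culture medium such phenols can oxidise and release hydrogen peroxide. Heme oxygenase 1 (HMOX1) degrades heme to biliverdin, iron and carbon monoxide, and its gene is induced through the transcription factor NRF2 and by heme. Proteins that fold in the endoplasmic reticulum (ER) are attended by chaperones such as HSPA5 (BiP), whose genes are switched on by ATF6 and XBP1 in the unfolded protein response. These statements are background and not results of these data.

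Total expected counts were 18.8, 26.1 and 21 M in replicates 1, 2 and 3 at 10 µM, and 19.7, 28.8 and 23.1 M at 0.4 µM. The share of counts from mitochondrially encoded genes was 2.40, 18.9 and 3.25% at 10 µM and 7.01, 13.7 and 9.96% at 0.4 µM, within a range of 0.822 to 18.9% over the batch. Replicate 2 at 10 µM therefore stood apart from the other two, on the far side of the 0.4 µM libraries. Replicate 1 at 0.4 µM stood apart in another way. It held 527 CPM (counts scaled to library size) of the fibroblast collagen gene COL1A2, against at most 0.366 CPM in the other 5 libraries. Its summed level of 16 fibroblast markers was 1150 CPM, against 74.2 to 112 CPM in the other 5. Most of that sum was COL1A2, COL1A1 (478 CPM) and COL3A1 (52.4 CPM). Of the 16 markers, 9 averaged at least 1 CPM over the 3 libraries at 0.4 µM, and 6 without replicate 1. A further 3 libraries of the batch, 1 of them gallic acid 2 µM replicate 1, carried COL1A2 in the same way, so that each result is given with all 75 libraries of the batch and again without these 4. For 116 genes the lowest of these 4 was more than 10 times the highest of the other 71, and above 1 CPM. They include many that are not fibroblast markers. RN7SK, named after its values were seen, had 1139 CPM in 0.4 µM replicate 1 and at most 2.67 CPM in the other 71. Where these transcripts came from was not tested. Of 26 markers of A549 and alveolar epithelium, 19 averaged at least 1 CPM in each group, while the alveolar genes SFTPB, SFTPC and NKX2-1 lay at or below 0.212 CPM in all 6 libraries. Of 3 genes listed as deleted in A549, CDKN2A had 0 counts in all 6 libraries. MTAP, another of the 3, was detected in all 6, with 1.20, 0.737 and 1.19 CPM at 10 µM and 0.754, 0.530 and 0.509 CPM at 0.4 µM.

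At 10 µM gallic acid, HMOX1 was higher and SALL4, ZNF544, THBD and GLUL were lower than at 0.4 µM, and these 5 calls held in both fits described here when any 1 library was left out. Of 20 tested genes of ER chaperones, 8 rose in the first fit and 9 in the second, with calls that depended on the library. In all, 102 of 18324 genes passed the test with all libraries (0.557%), 59 higher and 43 lower, and 81 of 18316 without the 4 libraries (0.442%), 46 higher and 35 lower. Each adjusted p given here is from edgeR's quasi-likelihood test with Benjamini-Hochberg adjustment over all genes tested, and a call means an adjusted p under 0.05. Both fits called 64 genes, 39 higher and 25 lower, each in the same direction in both. Only 19 and 15 of the calls reached a 2-fold difference. At an unadjusted p under 0.05 there were 2782 and 2962 genes, which is 15.2 and 16.2% of those tested.

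The number of calls turned on single libraries. Without replicate 2 at 10 µM, the library of high mitochondrial share, 1878 genes passed with all other libraries and 3557 when the 4 libraries were also left out. Leaving out replicate 1 or 3 at 10 µM gave 21 or 40 calls in the first fit and 18 or 42 in the second. Leaving out replicate 1, 2 or 3 at 0.4 µM gave 32, 53 or 73 calls in the first fit, and leaving out replicate 2 or 3 gave 6 or 10 in the second. Where the spread was estimated from the libraries of the groups compared alone, no gene passed (0 calls in edgeR). At an unadjusted p under 0.05 there were then 804 of 15856 and 464 of 16295 genes tested. These shares are far below those of the main fits. DESeq2 on the whole batch called 222 and 221 genes. Of the calls, 11 held with every single library left out in the first fit and 5 in the second, and the 5 were among the 11. The 6 further genes of the first fit were FICD, DNAJB9, PLPP5, ATP6V0A1, MAPT and TSPYL2.

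HMOX1 (ENSG00000100292, chromosome 22, 35380361 to 35394214, plus strand, GRCh38) had 320.3, 329.6 and 288 CPM in replicates 1, 2 and 3 at 10 µM, against 128, 125 and 124 CPM at 0.4 µM. All 3 libraries at 10 µM lay far above all 3 at 0.4 µM, and the library of high mitochondrial share and the library with COL1A2 lay close to their partners in this gene. The log2 change was 1.32 ± 0.15 (SE) with all libraries (adjusted p = 1.45e-07) and 1.34 ± 0.18 without the 4 (adjusted p = 6.72e-06). Leaving out any 1 library gave log2 changes between 1.27 and 1.4. With the log2 mitochondrial share as a covariate the change was 1.43 and 1.5 in the fits with and without the 4 libraries. It was 1.4 and 1.41 without the 16 libraries of the batch whose mitochondrial share was under 5%, which leaves 1 library at 10 µM. These settings were chosen after seeing the data. With the spread estimated from the libraries of the 2 doses alone, the adjusted p was 0.216 and 0.720. In bulk RNA, fewer cells of a type and less RNA per cell cannot be told apart.

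HMOX1 was the only gene called among 30 NRF2 targets in either fit (edgeR). At an unadjusted p under 0.05, 10 and 11 of the 30 were higher and 0 lower. Among all genes tested, 15.2 and 16.2% had such a p in either direction. With the mitochondrial share as a covariate 3 targets rose in each fit, where 209 of 18324 and 155 of 18316 genes were called higher. Without replicate 2 at 10 µM, 5 and 7 rose, where 875 of 18733 and 1507 of 18297 genes were called higher. The median log2 change of these targets was 0.20 with all libraries and 0.23 without the 4, against 0 and 0.03 over all genes tested. NQO1, a quinone reductase and a standard NRF2 target, had 2272, 1579 and 2036 CPM at 10 µM and 1820.5, 1636 and 1647 CPM at 0.4 µM. Its doses overlapped, because replicate 2 at 10 µM lay below all 0.4 µM libraries (log2 change 0.27 without the 4, adjusted p = 0.313). PIR, another NRF2 target, had 87.6, 66 and 80.2 CPM at 10 µM and 68.7, 63 and 61.3 CPM at 0.4 µM (log2 change 0.34, adjusted p = 0.159). The ferritin heavy chain gene FTH1, which stores the iron that heme degradation releases, had 5239, 5379.8 and 4569.6 CPM at 10 µM and 3944, 3963 and 3665 CPM at 0.4 µM. Its doses did not overlap, but the adjusted p was 0.187 with all libraries and 0.222 without the 4. Among all genes tested, doses did not overlap in 2122 of 18324 with all libraries and 4029 of 18316 without the 4. These counts take either direction, so a lack of overlap alone does not set a gene apart. None of 21 tested genes of peroxide defence passed (0 in edgeR and in DESeq2 in either fit, 5 at an unadjusted p under 0.05 in each), with medians of 0.05 and 0.18.

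**Figure D1:**
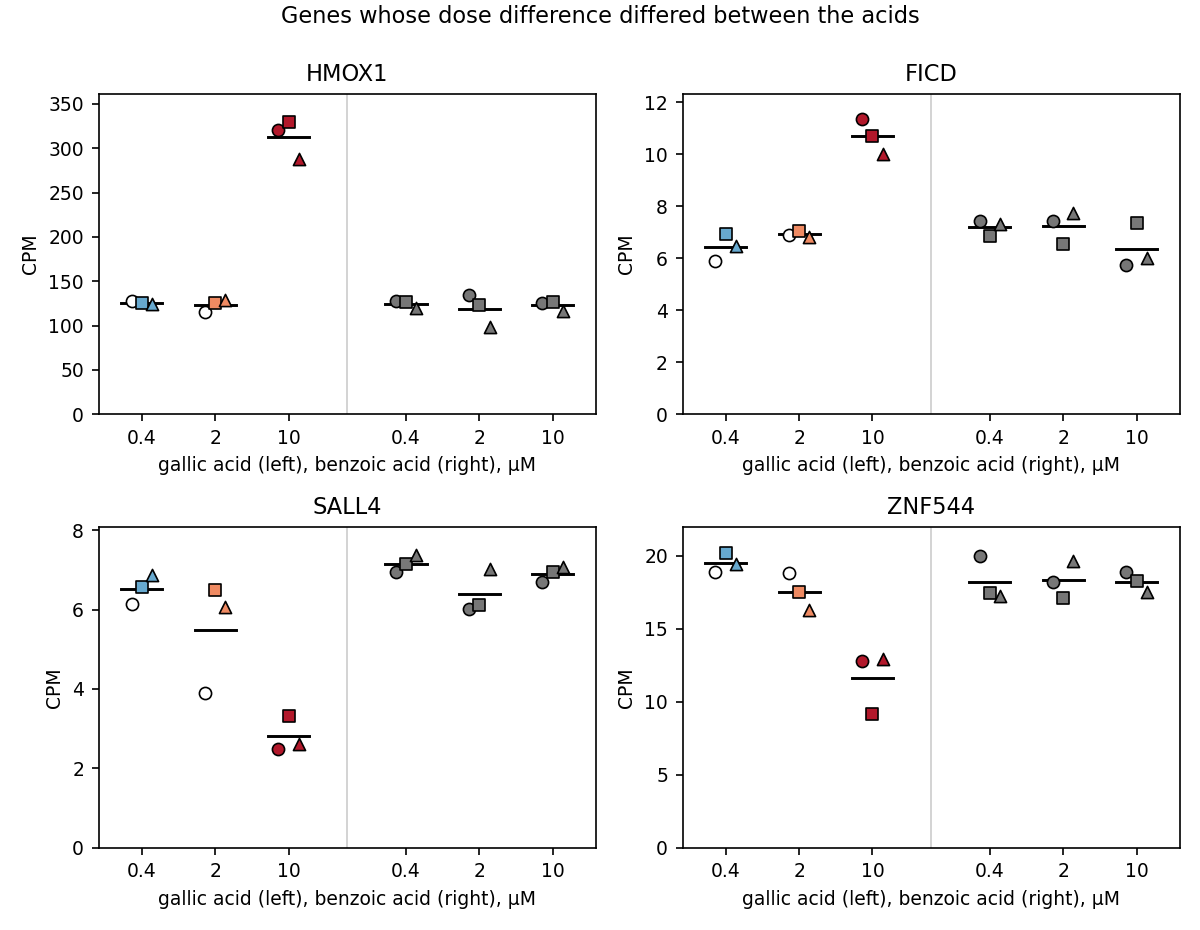
CPM of HMOX1, FICD, SALL4 and ZNF544 (y axis, linear, from 0) at 0.4, 2 and 10 µM of gallic acid (left, coloured) and benzoic acid (right, grey). Circles, squares and triangles are replicates 1, 2 and 3, open marks are libraries with COL1A2, and bars are means of 3. HMOX1 stands near 300 CPM only at 10 µM gallic acid, where its libraries hold 288 to 329.6 CPM.

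Of 20 tested ER chaperone genes, 8 rose with all libraries and 9 without the 4, and 0 fell. The share of all genes called higher was 0.322% and 0.251%. The median log2 change of the list was 0.56 and 0.68, and 16 and 17 members were positive. Both fits called HSP90B1, DNAJB9, PDIA3, CALR, HYOU1, MANF and CRELD1. PDIA4 passed only with all libraries (adjusted p = 0.0129, against 0.0526 without the 4), and HSPA5 and DNAJB11 only without the 4 (adjusted p = 0.00150 and 0.0169, against 0.363 and 0.0818 with all). Members beyond DNAJB9, HSPA5 and PDIA3 were picked for description after their values were seen.

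Several promoters of this group hold the ER stress response element, read here as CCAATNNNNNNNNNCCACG on either strand within 250 bases before the start site. The sequences are from RefSeq (GRCh38.p14), each 5′ to 3′ on the gene's strand, with the element in capitals. Of the 19 matched chaperone genes 7 hold the element, and only the 3 of these that were called are shown, with FICD. The 4 that hold it and were not called are not shown, so the choice does not tie the element to the calls. The second copy in HSP90B1 and the copy in CALR are in reverse complement.
HSPA5, chr9:125241351-125241449, minus strand: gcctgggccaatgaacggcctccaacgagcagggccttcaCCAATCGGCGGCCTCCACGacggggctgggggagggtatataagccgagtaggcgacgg
HSP90B1, chr12:103930176-103930379, plus strand: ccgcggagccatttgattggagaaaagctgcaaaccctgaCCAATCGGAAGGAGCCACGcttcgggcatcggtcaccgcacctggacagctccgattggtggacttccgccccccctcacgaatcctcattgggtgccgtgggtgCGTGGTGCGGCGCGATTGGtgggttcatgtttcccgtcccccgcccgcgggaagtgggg
CALR, chr19:12938359-12938442, plus strand: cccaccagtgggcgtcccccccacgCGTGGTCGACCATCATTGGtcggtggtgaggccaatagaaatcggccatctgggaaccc
FICD, chr12:108515083-108515181, plus strand: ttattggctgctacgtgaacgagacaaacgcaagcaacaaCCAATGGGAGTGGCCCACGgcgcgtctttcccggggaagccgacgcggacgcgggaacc
The element began 66 bases before the start site in HSPA5, 154 in FICD, 225 in CALR, and 194 and 89 in HSP90B1. It was found at 26 of 35116 RefSeq start sites (0.074%), and at any start site in 25 of 27305 genes by symbol. Of the 20 chaperone genes 19 matched an entry, and 7 of these held it. They were 3 of 9 matched members called in either fit (HSPA5, HSP90B1 and CALR) and 4 of 10 not called (PDIA6, CANX, CRELD2 and XBP1). FICD, which is not on the list, held it too. A match describes these letters only.

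DNAJB9 (ERdj4), a co-chaperone of HSPA5, had 17.8, 16.3 and 18.2 CPM at 10 µM and 12, 9.72 and 8.90 CPM at 0.4 µM. The doses did not overlap and the 3 libraries at 10 µM lay close together, whatever their mitochondrial share. Its log2 change was 0.78 ± 0.14 with all libraries (adjusted p = 0.00207) and 0.92 ± 0.16 without the 4 (adjusted p = 0.000973). The call was lost in the fit without the 4 when replicate 2 (adjusted p = 0.0533) or 3 (adjusted p = 0.126) at 0.4 µM was also left out. FICD, the ER enzyme that adds and removes AMP on HSPA5, had 11.4, 10.7 and 10.0 CPM at 10 µM and 5.88, 6.93 and 6.49 CPM at 0.4 µM. Again no library of one dose reached the other, and the log2 change was 0.73 ± 0.11 (adjusted p = 4.63e-05) and 0.68 ± 0.12 (adjusted p = 0.00150). Without the 4 and without replicate 2 or 3 at 0.4 µM, the adjusted p of FICD was 0.0628 or 0.152.

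The abundant chaperones were spread more widely. HSP90B1 (GRP94), the ER member of the HSP90 family, had 2938, 1174 and 2109 CPM at 10 µM and 1234, 919 and 1027 CPM at 0.4 µM. Replicate 2 at 10 µM lay between the 0.4 µM libraries, so that the doses overlapped with all libraries but not without 0.4 µM replicate 1. The log2 change was 0.97 ± 0.24 (adjusted p = 0.0417) and 1.11 ± 0.27 (adjusted p = 0.0438). Leaving out any 1 library other than replicate 2 at 10 µM ended the call of HSP90B1 in either fit, with adjusted p between 0.071 and 0.629. HSPA5 had 1412, 907 and 1207 CPM at 10 µM and 1319.6, 669 and 737 CPM at 0.4 µM. The doses overlapped, since the 0.4 µM library with COL1A2 held more than replicates 2 and 3 at 10 µM, and the log2 change was 0.37 ± 0.20 with all libraries and 0.76 ± 0.13 without the 4. The second value missed the threshold without replicate 1 at 10 µM (0.59, adjusted p = 0.0598) or replicate 2 at 0.4 µM (0.69, adjusted p = 0.170). MANF, a secreted ER stress factor, had 109, 53.7 and 72.9 CPM at 10 µM and 42.3, 40.6 and 38.7 CPM at 0.4 µM. Its doses did not overlap, although replicate 1 at 10 µM held more than any other library, and the log2 change was 0.95 ± 0.18 (adjusted p = 0.00257) and 1.0 ± 0.19 (adjusted p = 0.00512). Without replicate 1 at 10 µM the values for MANF were 0.64 (adjusted p = 0.253) and 0.68 (adjusted p = 0.214).

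PDIA3, a disulfide isomerase of glycoproteins, had 662, 409 and 526 CPM at 10 µM and 415, 326 and 352 CPM at 0.4 µM. Only replicate 2 at 10 µM reached into the range of 0.4 µM, and the log2 change was 0.55 ± 0.11 (adjusted p = 0.00838) and 0.66 ± 0.12 (adjusted p = 0.00211). Its call was lost in both fits without replicate 1 at 10 µM (0.36 and 0.46) and without replicate 2 or 3 at 0.4 µM (adjusted p between 0.0508 and 0.422 over these cases). Calreticulin (CALR), a lectin chaperone, had 1413, 723 and 999 CPM at 10 µM and 712, 551 and 606 CPM at 0.4 µM (log2 change 0.75 ± 0.18 and 0.87 ± 0.20). HYOU1, which exchanges the nucleotide on HSPA5, had 244, 159 and 205 CPM at 10 µM and 123, 113 and 127 CPM at 0.4 µM (log2 change 0.74 ± 0.16 and 0.77 ± 0.18). In both genes replicate 2 was the lowest at 10 µM and still lay above every 0.4 µM library. CRELD2 and SDF2L1 had larger changes in log2, 1.45 and 1.41 without the 4 libraries, and did not pass (adjusted p = 0.194 and 0.210). CRELD2 had 92.6, 21.6 and 69.6 CPM at 10 µM and 30.7, 20.3 and 24.8 CPM at 0.4 µM, so that replicate 2 lay inside the range of the lower dose.

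**Figure D2:**
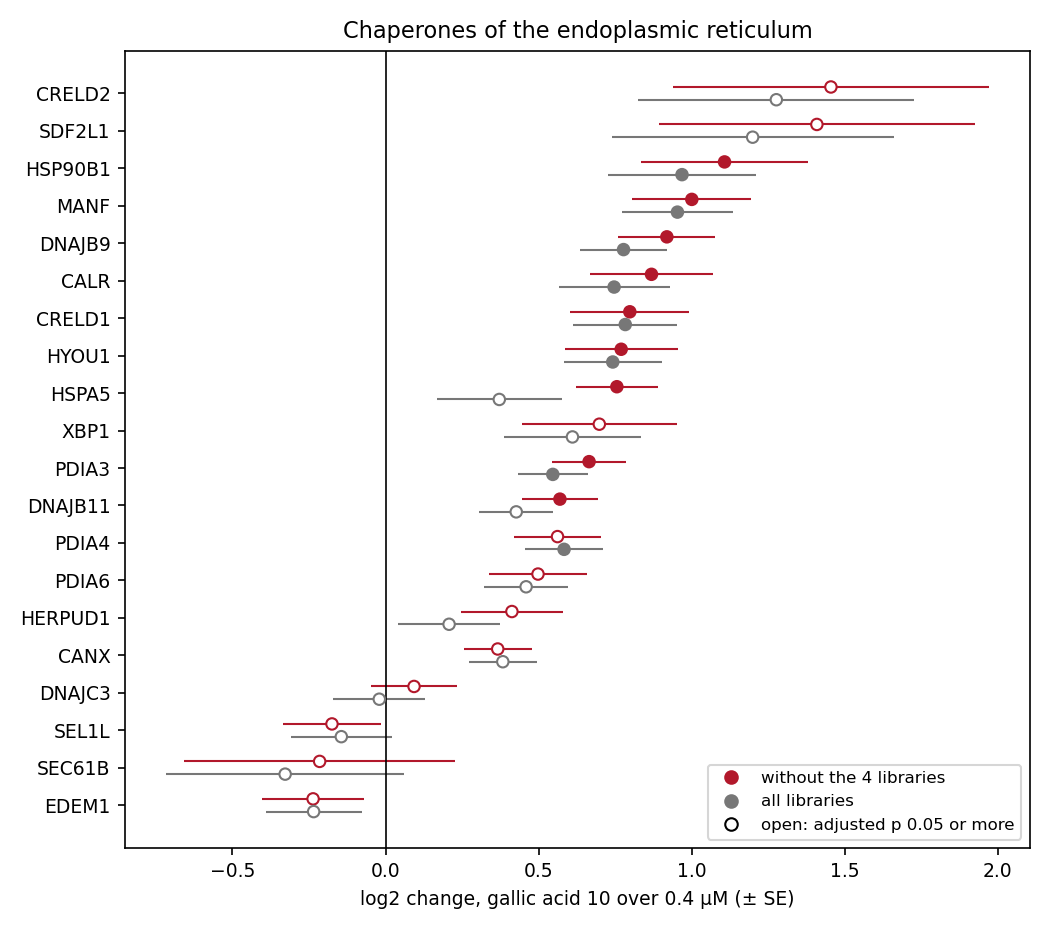
Log2 change of 10 against 0.4 µM gallic acid with its standard error (x axis) for the 20 tested ER chaperone genes (y axis), with all libraries and without the 4 libraries that held COL1A2. Filled marks have an adjusted p under 0.05 and open marks do not, and 16 and 17 of the 20 lie above 0.

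HSP90B1 at 10 µM was higher in the libraries of lower mitochondrial share. Replicates 1 and 3 at 10 µM, with shares of 2.40 and 3.25%, held the most HSP90B1, and replicate 2, with 18.9%, held the least at that dose. At 2 µM a low share and COL1A2 fall on the same library and cannot be told apart. Replicate 1 at 2 µM, with a share of 1.87% and 1829 CPM of HSP90B1, is among the 4 libraries with COL1A2, and these 4 held 1270.2 to 1503 CPM of HSPA5, against a median of 701 CPM in the other 71. Among libraries outside gallic acid with a share under 5% and no such COL1A2, HSPA5 ranged from 728 to 942 CPM, all above that median. The lowest was paeoniflorin 10 µM replicate 3 (share 4.94%) and the highest paeoniflorin 2 µM replicate 1 (1.39%). Catechin 2 µM replicate 1, with a share of 0.822% and 0.0941 CPM of COL1A2, held 769 CPM of HSPA5. With the share as a covariate, 13 and 14 of the 20 chaperone genes rose, where 209 of all 18324 and 155 of all 18316 genes tested were called higher. The log2 change was then 0.66 and 0.73 for HSP90B1 and 0.72 and 0.85 for DNAJB9. Without the libraries under 5%, 6 and 5 passed and the median of the list was 0.21 and 0.32. HSP90B1 then had a log2 change of 0.15 (adjusted p = 0.531) and 0.28 (adjusted p = 0.326), whereas DNAJB9 had 0.69 (adjusted p = 0.0217) and 0.81 (adjusted p = 0.0116), and FICD 0.73 and 0.68. Without replicate 2 at 10 µM, 875 of all 18733 genes tested were called higher in the first fit and 1507 of all 18297 in the second. Leaving out replicate 1, 2 or 3 at 10 µM left 1, 14 or 4 chaperone calls with all other libraries and 1, 15 or 4 without the 4. Leaving out replicate 1, 2 or 3 at 0.4 µM left 4, 2 or 5, and replicate 2 or 3 left 0 or 1 without the 4 (edgeR, adjusted p under 0.05).

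**Figure D3:**
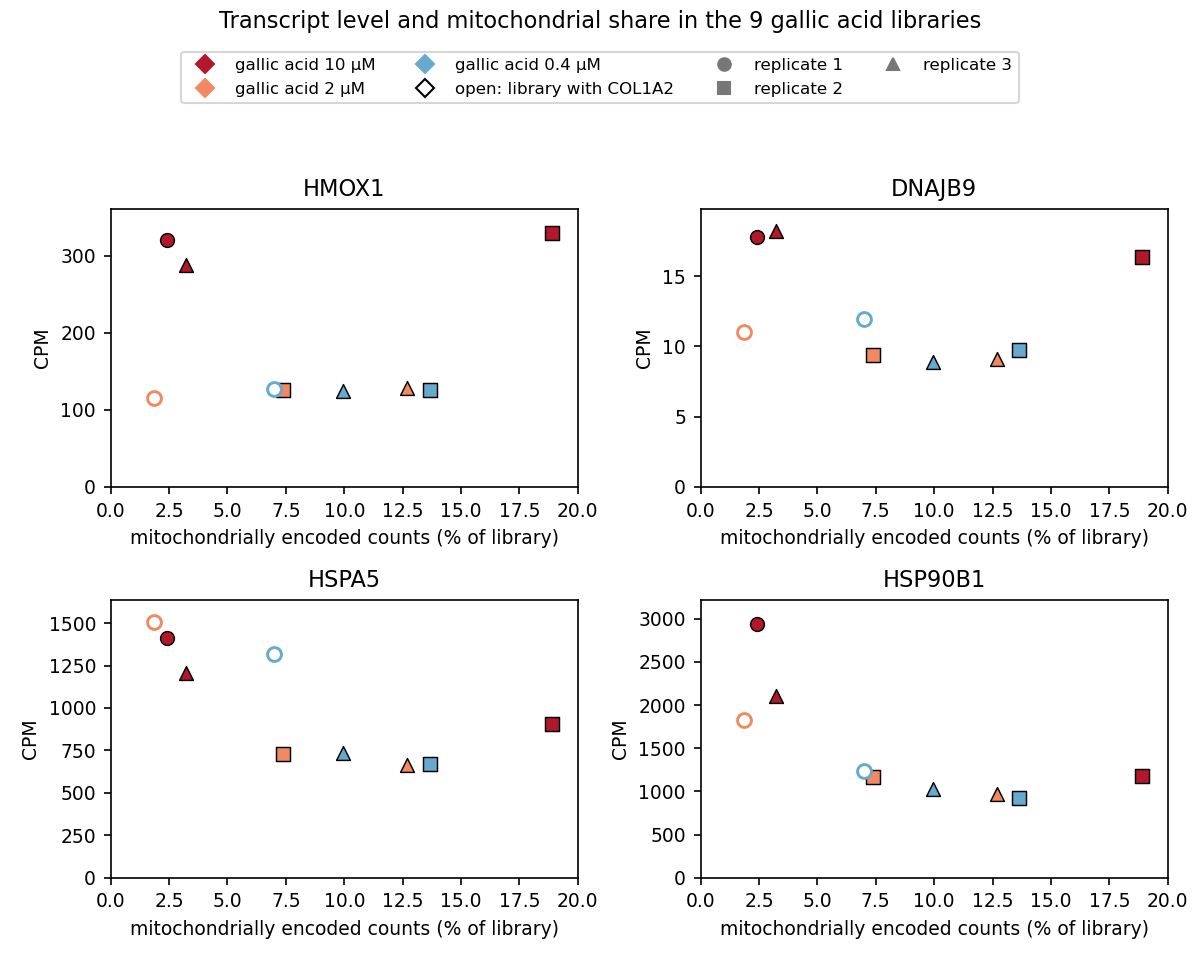
CPM of HMOX1, DNAJB9, HSPA5 and HSP90B1 (y axes, linear) against the percentage of counts from mitochondrially encoded genes (x axis) in the 9 gallic acid libraries. HMOX1 separates the 10 µM libraries from the rest at both ends of the share, while HSP90B1 is highest, at 2938 CPM, in a library of 2.40%.

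Further ER and secretory genes were called and are named after their values were seen. PPIB (cyclophilin B), a prolyl isomerase of the ER, had 583, 356 and 446 CPM at 10 µM and 310.0, 282 and 272 CPM at 0.4 µM. Its log2 change was 0.68 ± 0.13 (adjusted p = 0.00207) and 0.75 ± 0.14 (adjusted p = 0.00224). P4HB, a disulfide isomerase and subunit of prolyl hydroxylase, had 833, 768 and 785 CPM at 10 µM and 601, 616 and 629 CPM at 0.4 µM, with no overlap and a log2 change of 0.37 in both fits (adjusted p = 0.00330 and 0.00950). It kept a log2 change of 0.33 and 0.31 without the libraries under 5% mitochondrial share. NUCB2 (nucleobindin 2), a calcium-binding secretory protein, had 92, 55 and 75.8 CPM at 10 µM and 52, 40.9 and 44.8 CPM at 0.4 µM. The doses did not overlap, and the log2 change was 0.69 and 0.81 (adjusted p = 0.00582 and 0.000973), but 0.27 (adjusted p = 0.183) and 0.37 (adjusted p = 0.132) without the libraries under 5%. All 3 calls were lost in both fits on leaving out replicate 1 at 10 µM. Over single libraries left out of the first fit, the largest adjusted p was 0.162 for PPIB, 0.0645 for P4HB and 0.287 for NUCB2.

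Other stress programmes showed few calls. In the ATF4 amino acid response 1 of 29 genes rose with all libraries and 2 without the 4, where 0.322% and 0.251% of all genes tested were called higher, and DESeq2 called 2 and 4. On leaving out single libraries the number of its genes that rose was 0 to 6 in the first fit, with 0 without replicate 1 or 3 at 10 µM or replicate 1 at 0.4 µM. The 6 were without replicate 2 at 10 µM, where 875 of all 18733 genes tested were called higher. In the second fit 0 rose on leaving out replicate 1 or 3 at 10 µM. Without replicate 2 at 10 µM, 10 rose and 2 fell in that fit, where 1507 of all 18297 genes tested were called higher and 2050 lower. The glutamine transporter SLC1A5 had 562, 473 and 539 CPM at 10 µM and 387, 399.8 and 396 CPM at 0.4 µM (log2 change 0.41 in both fits, adjusted p = 0.00913 and 0.0314). Stanniocalcin 2 (STC2) had 22.2, 15.9 and 19.2 CPM at 10 µM and 22.5, 10.9 and 11.5 CPM at 0.4 µM. It passed only without the 4 libraries (log2 change 0.78, adjusted p = 0.0411), and the 0.4 µM library with COL1A2 held as much as the highest library at 10 µM. Of 16 NF-kB targets, the chemokine gene CXCL2 rose with all libraries, with 4.35, 3.36 and 3.98 CPM at 10 µM and 1.96, 2.40 and 2.42 CPM at 0.4 µM (log2 change 0.78, adjusted p = 0.0200) and had an adjusted p of 0.0978 without the 4. In either fit 0 genes passed edgeR's test among 18 heat shock genes, 26 p53 targets, 34 of hypoxia and glycolysis, 24 of cholesterol synthesis and 5 metallothioneins. At an unadjusted p under 0.05 these lists held 2, 4, 11, 3 and 1 genes with all libraries and 4, 6, 8, 6 and 2 without the 4. DESeq2 called 1 p53 target and 2 hypoxia and glycolysis genes with all libraries, and 1 of the hypoxia list without the 4.

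Genes outside these lists rose too. ATP6V0A1, a subunit of the proton pump that acidifies the lysosome, had 80.1, 82.6 and 78.1 CPM at 10 µM and 52, 53.4 and 51.8 CPM at 0.4 µM. Both doses were tight and well apart, and the log2 change was 0.61 ± 0.10 (adjusted p = 0.000339) and 0.62 ± 0.11 (adjusted p = 0.00158). Without the 4 libraries the call was lost on also leaving out replicate 2 or 3 at 0.4 µM (largest adjusted p 0.126). Cathepsin D (CTSD), a lysosomal protease, had 284, 262 and 285 CPM at 10 µM and 208, 212 and 201 CPM at 0.4 µM (log2 change 0.42 and 0.44, adjusted p = 0.0129 and 0.0219). ATP6V0A1, CTSD, MAPT (tau), PLPP5 and TSPYL2 were named after their values were seen. MAPT had 6.58, 9.18 and 8.24 CPM at 10 µM and 4.93, 4.95 and 5.21 CPM at 0.4 µM (log2 change 0.67 in both fits, adjusted p = 0.00207 and 0.0101). TSPYL2 had 36.4, 37.6 and 35.8 CPM at 10 µM and 25.7, 25.2 and 25.1 CPM at 0.4 µM (log2 change 0.53 and 0.55). PLPP5, a phospholipid phosphatase, had 21.7, 24.7 and 24.2 CPM at 10 µM and 17.1, 16.4 and 17.8 CPM at 0.4 µM (log2 change 0.46 and 0.47).

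Several further genes that rose lay at a few CPM. BTNL9, a butyrophilin-like membrane protein, had 1.96, 2.29 and 2.24 CPM at 10 µM and 0.603, 0.884 and 1.31 CPM at 0.4 µM (log2 change 1.20 and 1.0, adjusted p = 0.00207 and 0.0409). The scaffold gene CASKIN1 had 3.59, 2.54 and 2.93 CPM at 10 µM and 1.16, 1.41 and 1.4 CPM at 0.4 µM (log2 change 1.18 and 1.11, adjusted p = 0.00751 and 0.0120). IFITM10 had 7.34, 5.12 and 5.49 CPM at 10 µM and 3.77, 2.83 and 2.88 CPM at 0.4 µM (log2 change 0.92 and 1.08, adjusted p = 0.00207 and 0.000688). In all 3 genes the doses did not overlap, which the rule for naming them required. ETV2, an ETS transcription factor, had 2.77, 1.47 and 1.83 CPM at 10 µM and 0.905, 0.601 and 0.763 CPM at 0.4 µM (adjusted p = 0.0464 and 0.0419). HAP1, PDE6G and, with all libraries only, POU2F2 and the glutamate transporter SLC1A1 completed the rises in the first fit, with log2 changes of 0.91, 1.13, 1.14 and 0.94. SNCB, which encodes beta-synuclein, passed only without the 4 libraries (log2 change 1.61, adjusted p = 0.0419). Leaving out replicate 1 at 10 µM ended the call in the first fit for CASKIN1 (adjusted p = 0.128) and IFITM10 (adjusted p = 0.0932), and leaving out 0.4 µM replicate 1 ended that of BTNL9 (adjusted p = 0.0541).

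SALL4 (ENSG00000101115, chromosome 20, 51782331 to 51802520, minus strand, GRCh38), a zinc finger transcription factor of embryonic stem cells, had the smallest p among the falls. It had 2.50, 3.32 and 2.61 CPM at 10 µM and 6.14, 6.58 and 6.87 CPM at 0.4 µM. The doses lay well apart, and the log2 change was -1.21 ± 0.15 (adjusted p = 3.11e-07) and -1.24 ± 0.15 (adjusted p = 5.66e-07). ZNF544 (ENSG00000198131, chromosome 19, 58228594 to 58277495, plus strand), a zinc finger gene, had 12.8, 9.18 and 13 CPM at 10 µM and 18.9, 20.2 and 19.5 CPM at 0.4 µM. No library overlapped, which the rule for naming SALL4 and ZNF544 required. The log2 change of ZNF544 was -0.75 ± 0.10 (adjusted p = 6.39e-06) and -0.76 ± 0.11 (adjusted p = 8.21e-05). THBD (thrombomodulin), a receptor that turns thrombin to anticoagulant use, had 16.2, 22.7 and 17.9 CPM at 10 µM and 28.7, 33.5 and 31.6 CPM at 0.4 µM. GLUL, glutamine synthetase, had 23, 20.0 and 20.2 CPM at 10 µM and 29.97, 31.3 and 31.2 CPM at 0.4 µM. Both were named after their values were seen, and neither overlapped between doses. Their log2 changes were -0.72 ± 0.12 (adjusted p = 0.000258) and -0.77 ± 0.11 (adjusted p = 2.48e-05) for THBD, and -0.55 ± 0.08 (adjusted p = 5.23e-05) and -0.56 ± 0.09 (adjusted p = 0.000669) for GLUL. Over all single libraries left out of either fit, the largest adjusted p was 0.000274 for SALL4, 0.0171 for ZNF544, 0.0165 for THBD and 0.0478 for GLUL. Without the libraries under 5% mitochondrial share the log2 changes were -0.97 and -1.01 for SALL4, -0.46 and -0.51 for THBD, and -0.62 and -0.64 for GLUL.

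In the TGF-beta and mesenchymal list 2 of 26 genes fell in each fit, TGM2 and ITGB6, and 0 rose, with medians of -0.25 and -0.18. The share of all genes called lower was 0.235% and 0.191%. TGM2 (transglutaminase 2), which crosslinks proteins, had 258, 377 and 283 CPM at 10 µM and 422, 487 and 474 CPM at 0.4 µM. The doses did not overlap (log2 change -0.59 ± 0.13 and -0.64 ± 0.12, adjusted p = 0.0126 and 0.00512). ITGB6, the beta subunit of an integrin that activates latent TGF-beta, had 0.435, 3.20 and 2.52 CPM at 10 µM and 7.09, 4.35 and 4.62 CPM at 0.4 µM (log2 change -1.35 ± 0.27 and -1.09 ± 0.26, adjusted p = 0.00528 and 0.0326). Replicate 1 at 10 µM was far below its partners, and without it the log2 change was -0.90 (adjusted p = 0.110) and -0.65 (adjusted p = 0.197). Without the libraries under 5% mitochondrial share it was -0.72 (adjusted p = 0.0640) and -0.48 (adjusted p = 0.187). For TGM2 the call was also lost without replicate 1 at 10 µM, with a log2 change of -0.48 (adjusted p = 0.329) and -0.54 (adjusted p = 0.107). Outside the list, and named after its values were seen, the focal adhesion gene TGFB1I1 (Hic-5) had 13.5, 21.5 and 17.5 CPM at 10 µM and 26.5, 28.3 and 25.1 CPM at 0.4 µM (log2 change -0.60 and -0.59, adjusted p = 0.00257 and 0.0129).

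Part of the falls followed the 0.4 µM library with COL1A2. FLNC (filamin C), an actin crosslinker, had 4.46, 6.27 and 6.73 CPM at 10 µM and 38.1, 10.6 and 12.3 CPM at 0.4 µM. The first 0.4 µM value is from that library, and without the 4 libraries the log2 change moved to -0.96 ± 0.21 (adjusted p = 0.0183), against -1.79 ± 0.40 with all (adjusted p = 0.0139). LOXL1, a lysyl oxidase of the matrix, had 0.217, 0.164 and 0.137 CPM at 10 µM and 11.6, 0.495 and 0.466 CPM at 0.4 µM. It passed with all libraries (log2 change -4.56, adjusted p = 0.0464) and not without the 4 (log2 change -1.45, adjusted p = 0.141). Sarcospan (SSPN) likewise had a log2 change of -1.86 with all (adjusted p = 0.0184) and -1.11 without the 4 (adjusted p = 0.0746). ACTN1 (alpha-actinin 1), named after its values were seen, had 318, 411 and 365 CPM at 10 µM and 698, 478 and 496 CPM at 0.4 µM, and stayed called in both fits (log2 change -0.61 and -0.40, adjusted p = 0.00582 and 0.0474). Of 26 collagen and matrix genes tested with all libraries, 2 fell, and of 24 tested without the 4, 0 fell (edgeR).

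**Figure D4:**
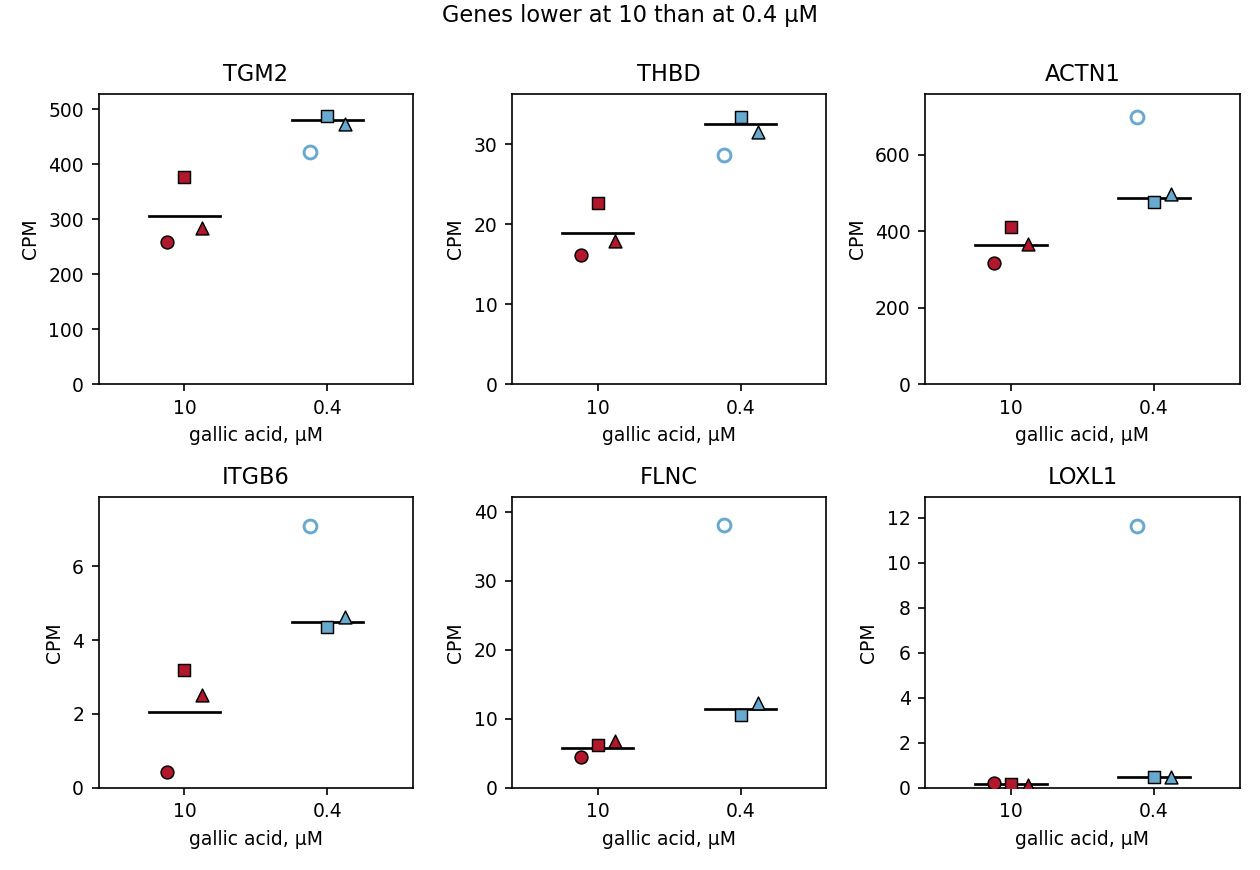
CPM (y axes, linear, from 0) of TGM2, THBD, ACTN1, ITGB6, FLNC and LOXL1 at 10 µM gallic acid (left) and at 0.4 µM (right). Bars are the mean of the 3 libraries at 10 µM and of replicates 2 and 3 at 0.4 µM, and the open mark is 0.4 µM replicate 1, at 38.1 CPM for FLNC and 11.6 CPM for LOXL1.

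The remaining falls named by rule spanned several functions. NSUN7, of the RNA methyltransferase family, had 0.435, 1.02 and 0.320 CPM at 10 µM and 1.31, 1.56 and 2.08 CPM at 0.4 µM (log2 change -1.44 and -1.56, adjusted p = 0.00497 and 0.00513). ACOT4, a peroxisomal acyl-CoA thioesterase, had 1.74, 1.07 and 0.916 CPM at 10 µM and 2.87, 2.79 and 2.25 CPM at 0.4 µM (log2 change -1.10 and -1.02). KDELC2, an ER-resident protein glucosyltransferase, went against the chaperones. It had 14.9, 26.3 and 18.3 CPM at 10 µM and 31.8, 41.9 and 37.4 CPM at 0.4 µM (log2 change -0.90 and -0.99, adjusted p = 0.0178 and 0.00575). ZNF354C, the magnesium channel gene TRPM6, the membrane ubiquitin ligase gene MARCHF4 and PRTFDC1 fell in both fits, with log2 changes of -0.94, -0.88, -0.85 and -0.85 without the 4 libraries. TTC39A fell with all libraries only (log2 change -0.86, adjusted p = 0.0139, against -0.58 and 0.108 without the 4). FGFR1, a growth factor receptor outside the rule, had 83.6, 102 and 97.6 CPM at 10 µM and 133, 122 and 126 CPM at 0.4 µM (log2 change -0.42 and -0.38).

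Cell division genes did not pass. Of 40 genes of mitosis and Aurora B 0 passed in either fit, with medians of -0.19 and -0.22, and of 40 genes of DNA replication 0 passed, with medians of -0.04 and -0.02 (edgeR). At an unadjusted p under 0.05 there were 5 and 9 mitotic and 6 and 10 replication genes with and without the 4 libraries, and DESeq2 called 0 and 0 of the first list and 1 and 1 of the second. The mitotic motor gene KIF11 had 105, 138 and 123 CPM at 10 µM and 127, 145 and 152 CPM at 0.4 µM, so that the doses overlapped. AURKB, the Aurora B kinase and a gene outside the rule, had 105, 82.9 and 88.9 CPM at 10 µM and 95.1, 87.4 and 86.7 CPM at 0.4 µM (log2 change 0.10 without the 4, adjusted p = 0.589). Among markers of other cells, 0 fibroblast, endothelial, leukocyte, muscle or neural markers passed edgeR's test in either fit. At an unadjusted p under 0.05 these lists held 5, 0, 0, 2 and 2 genes with all libraries and 2, 0, 2, 0 and 2 without the 4, and DESeq2 called 1 fibroblast and 1 neural marker with all libraries. HNF4A, a liver and gut transcription factor, was the 1 marker of other epithelial lines to pass, and only without the 4 libraries (log2 change -0.46, adjusted p = 0.0183). The A549 marker list had 0 calls in either fit and medians of 0.08 and 0.21. Its summed level was higher where the mitochondrial share was lower, with 30197, 19551 and 26499 CPM at 10 µM and 23342, 21741 and 22977 CPM at 0.4 µM. The part of that share in the results was not tested beyond the values given.

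**Figure D5:**
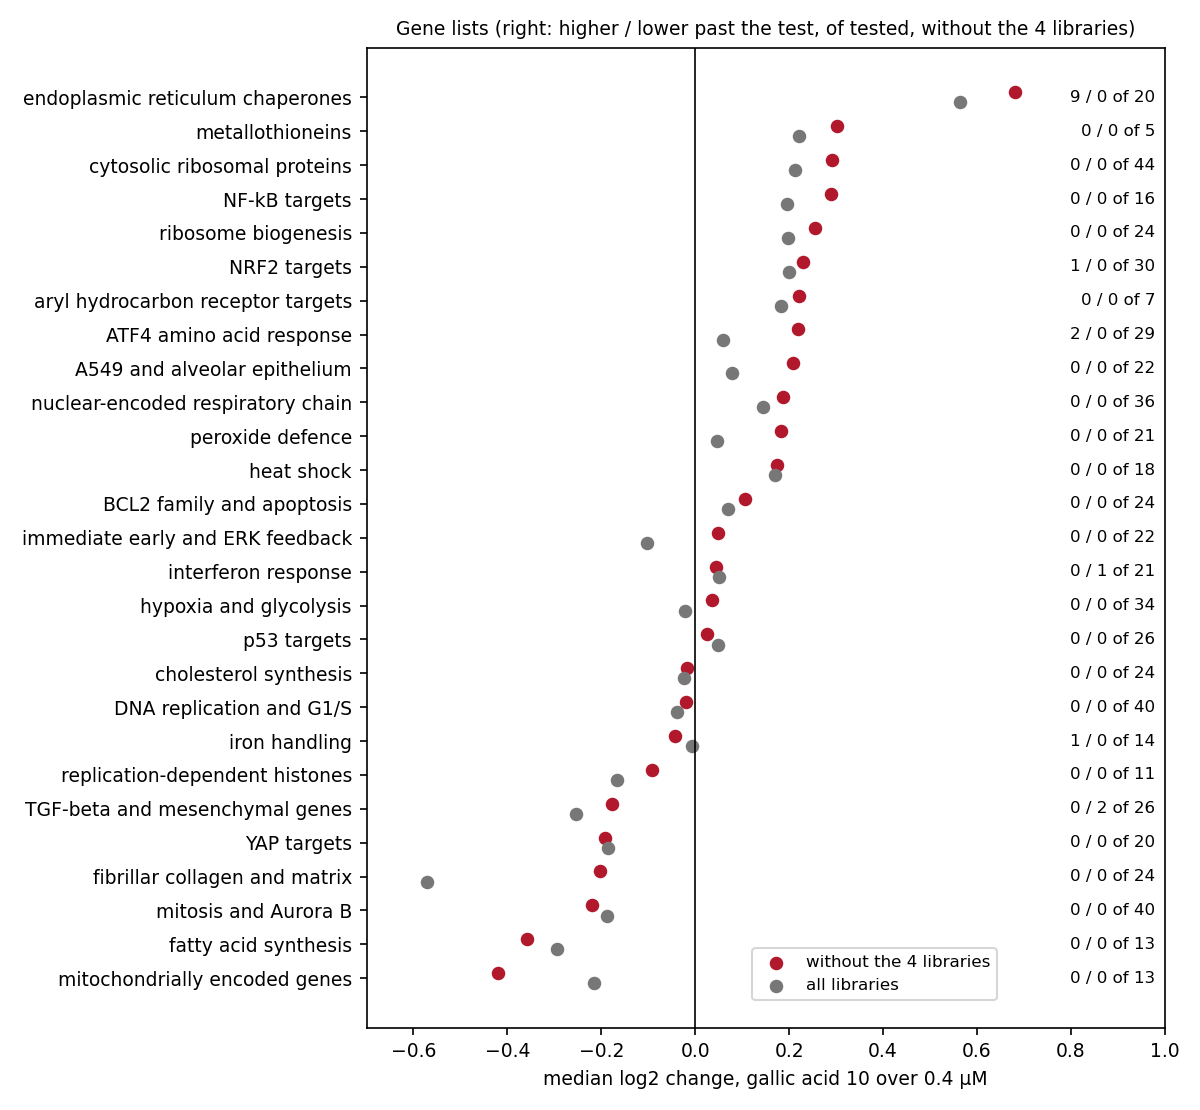
Median log2 change of 10 against 0.4 µM gallic acid (x axis) for 27 gene lists (y axis), with all libraries and without the 4 libraries that held COL1A2. The numbers beside each list are the members called higher and lower of those tested without the 4, and the ER chaperones have the highest median of the lists drawn, 0.68.

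At the intermediate dose of 2 µM the called genes lay near the low dose. Replicate 1 is among the 4 libraries, so replicates 2 and 3 were used. Of the 64 genes called in both fits, the mean of these 2 libraries was nearer to 0.4 than to 10 µM on the log2 scale for 61, and for 60 both libraries stayed short of all 3 at 10 µM. HMOX1 had 116, 125 and 128 CPM in the 3 libraries at 2 µM, close to the 0.4 µM libraries. SALL4 had 3.90, 6.49 and 6.07 CPM at 2 µM, where the low value is replicate 1. The genes were picked for the difference between the outer doses, so these counts describe them and are no test. Replicates 2 and 3 at 2 µM had mitochondrial shares of 7.38 and 12.7%, within the 7.01 to 13.7% at 0.4 µM. At 10 µM the shares were 2.40, 18.9 and 3.25%. The part of the share in this nearness was not tested.

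Benzoic acid at the same doses gave the 1 pair of related compounds compared, with p-values adjusted over all genes. The difference between the 2 compounds in the change of 10 against 0.4 µM passed for 6 genes with all libraries (0.0327%), 4 of them higher under gallic acid (0.0218%) and 2 lower (0.0109%). Without the 4 libraries it passed for 4 genes (0.0218%), 2 in each direction (0.0109% each). Beside its gallic acid values of 288 to 329.6 CPM at 10 µM and 124 to 128 CPM at 0.4 µM, HMOX1 had 126, 127 and 116 CPM at 10 µM benzoic acid and 127, 127 and 120.4 CPM at 0.4 µM. In the vehicle libraries of the batch it had 123, 124 and 119 CPM. The dose change was larger under gallic acid by 1.34 in log2 (95% interval 0.913 to 1.76, adjusted p = 0.000963) with all libraries and by 1.36 (0.896 to 1.82, adjusted p = 0.00281) without the 4. FICD had 5.73, 7.37 and 6.0 CPM at 10 µM benzoic acid and 7.42, 6.88 and 7.33 CPM at 0.4 µM, and the difference was 0.91 (0.597 to 1.22, adjusted p = 0.00242) and 0.86 (0.528 to 1.19, adjusted p = 0.0195). SALL4 had 6.70, 6.95 and 7.07 CPM at 10 µM benzoic acid and 6.94, 7.15 and 7.38 CPM at 0.4 µM, level with each other and with 0.4 µM gallic acid. The difference was -1.16 (adjusted p = 0.00242) and -1.19 (adjusted p = 0.00245). ZNF544 had 18.9, 18.3 and 17.6 CPM at 10 µM benzoic acid and 20.0, 17.4 and 17.3 CPM at 0.4 µM, and the difference was -0.75 (adjusted p = 0.0114) and -0.76 (adjusted p = 0.0329). BTNL9 and PLPP5 passed with all libraries only (adjusted p = 0.0477 and 0.0492, against 0.208 and 0.108 without the 4).

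Leaving out any 1 library of the 4 groups kept HMOX1, FICD and SALL4 past this test with all other libraries, and ZNF544 in 7 of 12 cases (largest adjusted p 0.0888, without benzoic acid 0.4 µM replicate 3). Without the 4 libraries, HMOX1 was lost when replicate 2 (adjusted p = 0.0998) or 3 (adjusted p = 0.130) of gallic acid 0.4 µM was also left out, and SALL4 with replicate 3 (adjusted p = 0.0644). FICD and ZNF544 were then past the test in 4 and 5 of 11 cases. None of the 20 chaperone genes passed the test of the difference from benzoic acid in either fit (0 in edgeR), and DESeq2 called 0 and 3. At an unadjusted p under 0.05 there were 11 and 15 of the 20. Among all genes tested for this difference there were 953 of 18324 (5.20%) and 1170 of 18316 (6.39%). Without the 4 libraries the difference was 0.90 for DNAJB9 (0.475 to 1.32, adjusted p = 0.131), 0.75 for HSPA5 (0.394 to 1.11, adjusted p = 0.134) and 1.12 for HSP90B1 (0.400 to 1.84, adjusted p = 0.541). It was -0.69 for THBD (-0.983 to -0.401, adjusted p = 0.0583) and -0.55 for GLUL (-0.801 to -0.299, adjusted p = 0.113). These intervals are not adjusted for the number of genes, and a p above the threshold does not show that the compounds act alike. Mitochondrial shares were 2.40 to 18.9% at 10 µM and 7.01 to 13.7% at 0.4 µM gallic acid, against 14.9 to 15.4% at 10 µM and 13.1 to 15.3% at 0.4 µM benzoic acid.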

How the data were processed

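RNA was sequenced from A549 cultures with a kit that keeps strand, per the labels' protocols; whether strand entered the counting is not given in the sources used here. The authors deposited 1 table of expected counts, for 60675 genes and 96 libraries, made with FastQC, Trim Galore, STAR and RSEM 1.3.3 on the human build GRCh38 (hg38), per the submitters' processing notes. Of its values, 89.2% were whole, and RSEM shares reads among genes that they match equally well.

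Expected counts were rounded. Genes were tested with edgeR 4.0.16 in R 4.3.3 by the quasi-likelihood test, with TMM scaling, filterByExpr and Benjamini-Hochberg adjustment over all genes tested, at a threshold of 0.05. All 75 libraries of the second batch (25 groups) shared 1 estimate of the spread. The fit was repeated without 4 libraries that held COL1A2. CPM values use TMM-adjusted library sizes. Intervals at 95% are not adjusted for the number of genes. Alternatives included DESeq2 1.42.0, other filters and leaving out each library. The contrast, the 4 libraries and the 34 gene lists were chosen with earlier results of these data known.

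In each fit the named genes were the 10 that rose most and the 10 that fell most in log2 change, among genes past the test with at least 1 CPM on average in 1 group and no overlap between doses. Up to 3 members with the smallest p came from each list. Genes named outside this rule are marked as such. Identifiers of clones, pseudogenes and antisense genes were passed over. Up to 3 genes in each direction came from the comparison with benzoic acid. The tests were checked on simulated counts. A gene that the rule picked is not reported here.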

Additional observations from a re-analysis of the deposited data

Results flagged for a closer look

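The results below had a change between 10 and 0.4 µM that differed between gallic acid and benzoic acid in the interaction test of edgeR. Values are gallic minus benzoic acid on the log2 scale, with Benjamini-Hochberg adjusted p. With all libraries they were 1.338 for HMOX1 (adjusted p = 0.0009628), 0.9064 for FICD (adjusted p = 0.002422), 1.517 for BTNL9 (adjusted p = 0.04773), 0.4511 for PLPP5 (adjusted p = 0.04919), -0.7499 for ZNF544 (adjusted p = 0.01141) and -1.159 for SALL4 (adjusted p = 0.002422). Without the 4 libraries they were 1.359 for HMOX1 (adjusted p = 0.002808), 0.8560 for FICD (adjusted p = 0.01952), -0.7633 for ZNF544 (adjusted p = 0.03287) and -1.192 for SALL4 (adjusted p = 0.002445). BTNL9 passed in 3 of 12 fits that left out 1 library each, and PLPP5 in 1 of 12. Groups of 3 libraries were not screened for outliers.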

How the results depend on the processing

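The count of genes called for 10 against 0.4 µM was 102 with all libraries and 81 without the 4. DESeq2 gave 222 and 221, no filter on low counts 22 and 16, and only the libraries of the groups compared 0 and 0. With 2 alternatives chosen after seeing the data, mitochondrial share as a covariate gave 489 and 346, and leaving out libraries under 5% mitochondrial share gave 413 and 149, of which 47 and 31 were among the main calls. Leaving out 1 library gave 21 to 1878 and 6 to 3557. Other scaling, a stricter filter and robust estimation stayed within 1.5 times.

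The count against benzoic acid was 6 and 4. It became 17 and 24 with DESeq2, 1 and 1 with no filter, 1 and 1 with only the libraries of the groups compared, 29 and 44 with the covariate, and 54 and 44 without libraries of low mitochondrial share. Leaving out 1 library gave 3 to 14 and 0 to 38. The 0 is without gallic acid 0.4 µM replicate 3 (830 genes at an unadjusted p under 0.05). The cause of these changes was not tested.

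Deviations of same-numbered libraries correlated at 0.295, 0.343 and 0.0165. Since the value for replicate 3 is under 0.1, the numbers were not taken as pairs. A replicate block gave 104 and 90 calls, and 8 and 6 against benzoic acid. At 10 µM, replicates 1 and 2 correlated best with their own number and replicate 3 with replicate 1 (0.0854).

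For 230 named or called genes there were 6572 alternative values. Of these, 5274 stayed on the same side of the threshold, 1026 fell short of it, 267 newly passed and 5 reversed. A reversal was counted only where the gene was called in the main or the alternative fit. Genes called in neither may have changed direction among the 5274. The reversed ones are KRT8 -0.44, KRT18 -0.46, KRT7 -0.41 and CLDN1 0.34 with all libraries but those of low mitochondrial share, and COL1A1 -0.44 without the 4 with the covariate. Of 34 list medians, 7 moved by more than the spread between libraries.

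With 2 or 3 libraries per dose, a lone library left in a group is assumed to vary like the other groups, and genes of a few CPM rest on few counts.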

Other observations

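Other lists give further values without calls. The 44 cytosolic ribosomal protein genes had a median log2 change of 0.21 with all libraries and 0.29 without the 4, and the 24 genes of ribosome biogenesis 0.20 and 0.26. In these lists 8 and 14, and 2 and 6, had an unadjusted p under 0.05, and edgeR and DESeq2 called 0 in either fit. The 20 YAP targets had a median of -0.19 in both fits, with 5 and 6 genes at an unadjusted p under 0.05 and 0 calls in either tool. The growth differentiation factor GDF15 had 27.2, 20.4 and 25.1 CPM at 10 µM and 15.8, 16 and 15.4 CPM at 0.4 µM, with no overlap (log2 change 0.62 and 0.64, adjusted p = 0.0708 and 0.106 by edgeR). The same lack of overlap was found in 2122 of 18324 genes tested with all libraries and 4029 of 18316 without the 4.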
